A study of Saccharomyces cerevisiae with 6 samples.

Results

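The genes described here are 50 budding yeast genes of cytosolic translation, namely 21 cytosolic aminoacyl-tRNA synthetase genes and 29 genes of initiation, elongation and termination factors. They were taken by systematic name from a table of 6212 identifiers, and all 50 matched a gene of the R64 annotation. The cells, strain mmr09-4 in the cml476 background, carry a kanmx4-tetO7 cassette directly before the YPI1 coding region, so doxycycline shuts YPI1 off. Treated cells grew in YPD, a rich glucose medium, with 100 µg/ml doxycycline in ethanol and water, and untreated cells of the same strain received ethanol and water alone, each for 2, 4 or 6 h. Ypi1 is a regulatory subunit of protein phosphatase 1, whose catalytic subunit is Glc7, and the series asks about its part in progression through mitosis. Cells whose YPI1 keeps its own promoter were not analysed here, so an effect of doxycycline itself cannot be told apart from that of YPI1 loss, and the labels name a single strain.

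Translation begins when initiation factors bring the small ribosomal subunit and the initiator tRNA to the start codon. Elongation factors then deliver charged tRNAs and move the ribosome along, and release factors end synthesis at the stop codon. Aminoacyl-tRNA synthetases charge each tRNA with its amino acid. In yeast these genes are highly expressed in growing cells, and many are known to be regulated together with the genes of ribosomal proteins and ribosome assembly.

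The values are log ratios of treated over untreated RNA on 2-colour arrays, read here as log2, with 3 RNA pairs (1 per time) on 6 arrays. Each pair was hybridised on 2 arrays with the dyes exchanged, called replicates 1 and 2 after the labels. Values at a time are given for replicate 1 and then replicate 2, and mean ± SD is over those 2 technical arrays, so the SD holds no biological spread. Arrays held 4250 to 4804 genes. YPI1 itself was negative on every array, with log2 ratios of −4.06 and −4.73 (2 h), −5.32 and −5.64 (4 h), and −6.44 and −6.17 (6 h). Of the 50 genes, 44 had both arrays at 2 h, 50 at 4 h and 47 at 6 h, and 41 had all 6 values. GUS1, FRS1, TEF4 and YEF3 had none at 2 h, THS1 and SUI2 lacked replicate 2 at 2 h, and at 6 h GCD11 had none while CRS1 and TIF4632 had 1 array each.

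Across the 3 times together, no gene of the set passed a test. The limma test of the mean over the times, two-sided with Benjamini-Hochberg adjustment at 0.05, called 0 of the 41 genes with all values, and also 0 at an unadjusted p under 0.05. Among all 3391 genes tested it called 0.0295%, and 0.295% at the unadjusted threshold. The lowest adjusted p in the set was 0.806. The limma test of the slope on hours called 0 of 41, against 0.059% of all genes. At an unadjusted p under 0.05 the slope picked out 11 of the 41, 10 upward and 1 downward, against 14.3% of all genes, with the lowest adjusted p in the set at 0.306. With the 4 h arrays left out the slope test called 24 of 41, 18 upward and 6 downward, when it called 1768 of 3453 genes in all. The steepest slopes were those of EFT1 at 0.19 ± 0.063 (SE, n = 3 RNA pairs) log2 units per hour, EFT2 at 0.18 ± 0.061 and SUP35 at 0.17 ± 0.059, each with a limma adjusted p = 0.306, and SUI1 had the lowest at −0.13 ± 0.054 with the same adjusted p. No gene of the set kept 1 sign on all 6 arrays, against 1.98% of all genes.

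At 2 and 4 h the set stood near untreated cells and its exchanged arrays mostly disagreed in sign. The median log2 ratio at 2 h was 0.002, with array medians of 0.13 and −0.093, and at 4 h −0.079, with −0.031 and −0.093. All genes had medians of −0.008 and 0.006. None of the set reached a 2-fold change, defined as a mean log2 ratio of at least 1 in size with 1 sign on both arrays, against 0.0486% of genes at 2 h and 0.064% at 4 h. At 2 h, 6 of 44 were above 0 on both arrays and 5 below, against 16.8% and 16.3% of all genes, and at 4 h, 6 of 50 were above and 12 below, against 18.1% and 17.5%. The exchanged arrays correlated over the set with Pearson r = −0.67 at 2 h and −0.56 at 4 h, and over all genes with −0.40 and −0.17, while YPI1 kept its sign on all of them. Synthetases made up 8 of those 12 genes, and 0 of the 21 synthetases were above 0 on both arrays. Their 4 h median was −0.10, and that of the 29 factors was −0.021. At 4 h 335 of 1146 genes from 1300 bp to under 2000 bp were below 0 on both arrays and 109 above. From 2000 bp to under 3000 bp these were 136 and 71 of 551. Relative to matched genes, defined below, the 4 h median was −0.016 for synthetases, with 3 above 0 on both arrays and 7 below. For factors it was −0.0048, with 5 above and 4 below. The part of length in the 4 h ratios was not tested.

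**Figure D1:**
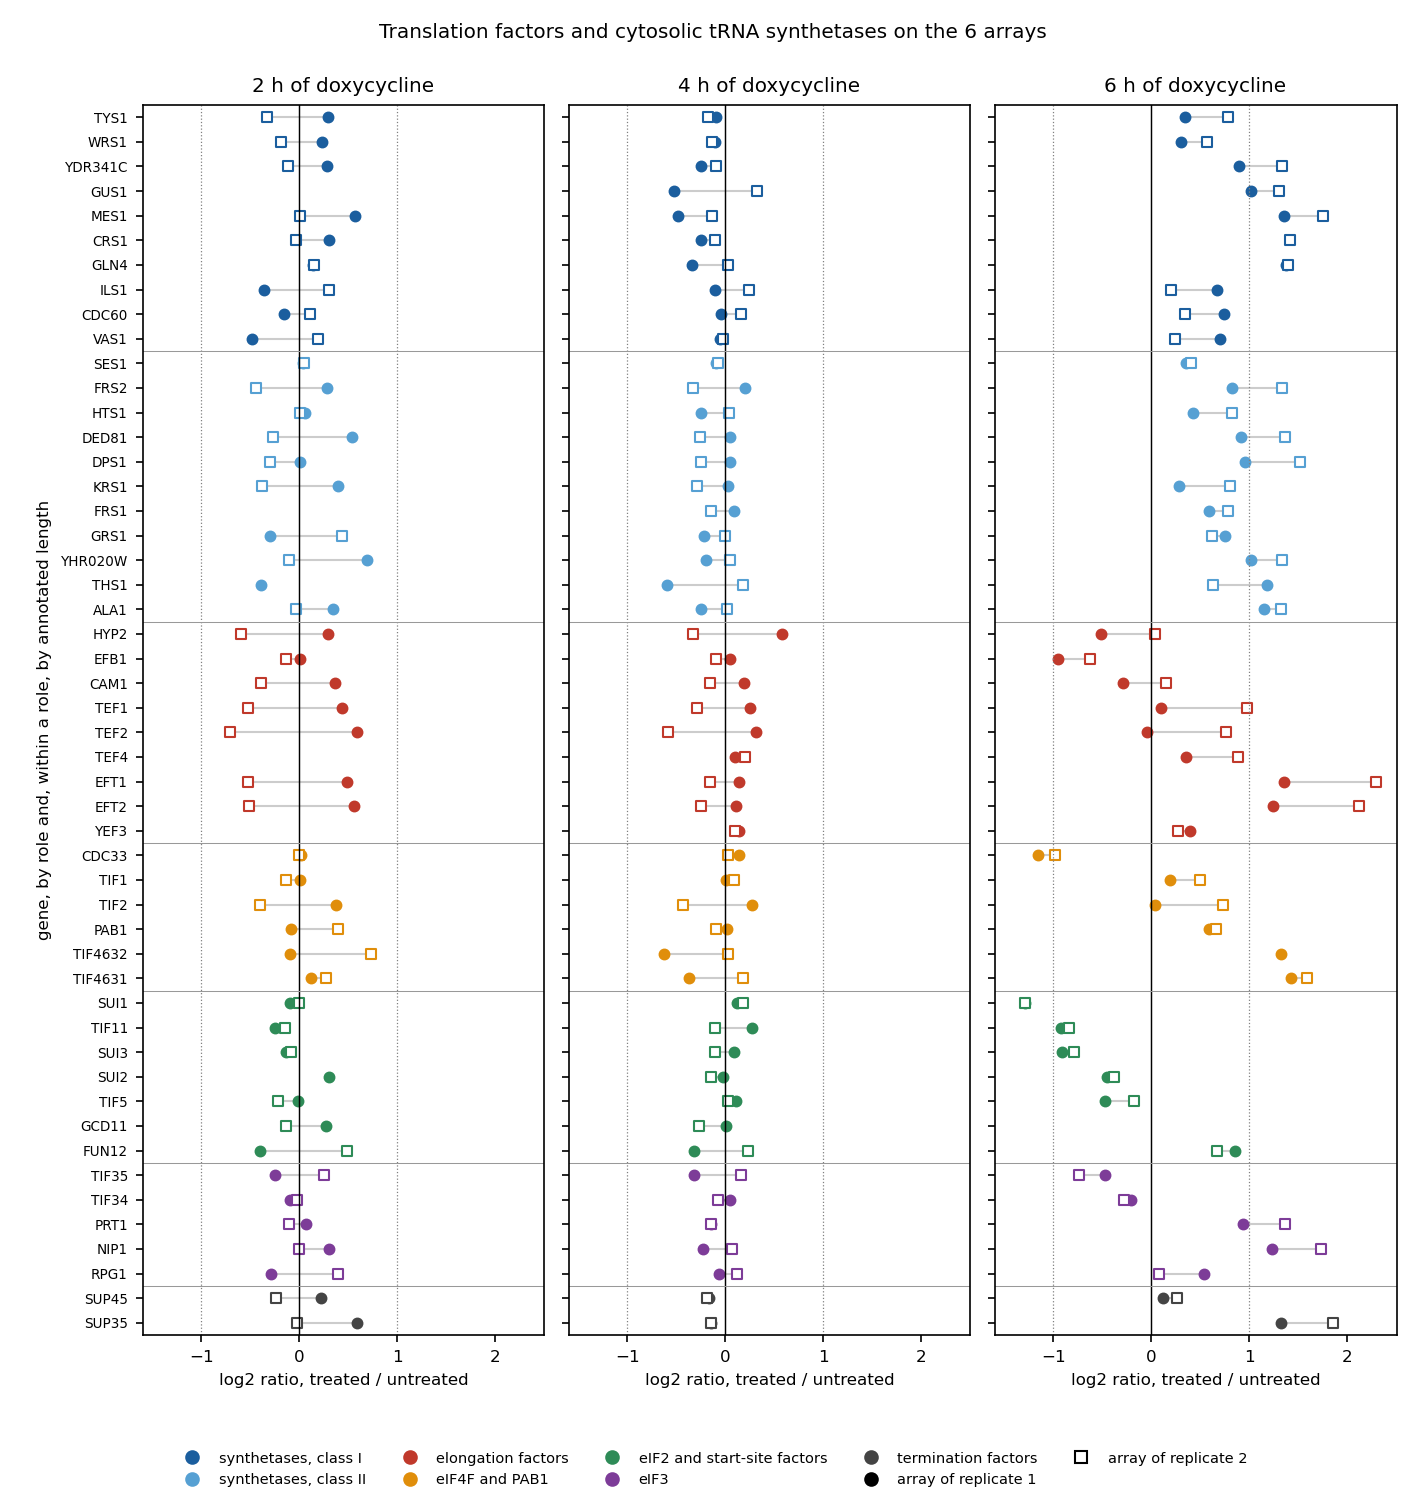
Log2 ratio of treated over untreated cells for each of the 50 genes (rows, by role and then by annotated length) at 2, 4 and 6 h (panels), with filled circles for replicate 1, open squares for replicate 2 and a line joining them. Dotted lines mark a 2-fold change. At 2 and 4 h most lines cross 0, while at 6 h 35 of 47 genes are above 0 on both arrays and 9 below.

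The early values with 1 sign on both arrays were small. At 2 h the highest were those of MES1 (YGR264C), the methionyl-tRNA synthetase gene, at 0.57 and 0.0040, of TIF4631, a gene of the scaffold eIF4G, at 0.12 and 0.27, and of NIP1, an eIF3 subunit gene, at 0.31 and 0.0010. MES1 and NIP1 were near 0 on replicate 2. The lowest were those of TIF11, which encodes eIF1A, at −0.25 and −0.15, of TIF5, which encodes the GTPase activator eIF5, at −0.018 and −0.22, and of SUI3, the beta subunit gene of eIF2, at −0.13 and −0.085. These low genes are under 1300 bp long and their products act in start-site recognition. At 4 h the highest were TEF4 at 0.10 and 0.20, SUI1 at 0.12 and 0.18 and YEF3 at 0.14 and 0.10. The lowest were MES1 at −0.48 and −0.14, SUP45 at −0.16 and −0.19 and CRS1 at −0.25 and −0.10. MES1 thus was at opposite ends of this order at 2 and 4 h. The SD of the means over the set was 0.124 at 2 h and 0.104 at 4 h, smaller than that of the deviation of an array from the mean, 0.281 and 0.191.

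The disagreement between exchanged arrays was itself repeated from time to time, gene by gene. For each gene the array with treated RNA in Cy3 was subtracted from that with treated RNA in Cy5, which is replicate 1 at 2 and 4 h and replicate 2 at 6 h. At 2 h this rests on taking replicate 2 as the swap, since its labels give Cy3 for both channels. TEF2 had a difference of 1.30 at 2 h, 0.90 at 4 h and 0.80 at 6 h, and EFT1 had 1.01, 0.29 and 0.93. FUN12, which encodes eIF5B, had −0.89, the lowest at 2 h, then −0.55 and −0.19. The lowest at 4 h was GUS1 at −0.85, and the lowest at 6 h was THS1, the threonyl enzyme gene, at −0.56. Over the set the differences at 2 and 6 h correlated with Pearson r = 0.90 (Spearman 0.90, n = 41 genes), those of 2 and 4 h with 0.68 (0.63, n = 44) and those of 4 and 6 h with 0.58 (0.57, n = 47). These are descriptions over genes that share arrays and dyes. Over all genes the same Pearson values were 0.71, 0.57 and 0.54. Among the elongation factors 7 of 7 had a positive difference at 2 h, 8 of 9 at 4 h and 8 of 9 at 6 h, with medians of 0.96, 0.35 and 0.55. Over all genes 54.2% were positive at 2 h, 52.8% at 4 h and 63.6% at 6 h, with medians of 0.053, 0.03 and 0.11. The part of the dyes in these differences was not tested.

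**Figure D2:**
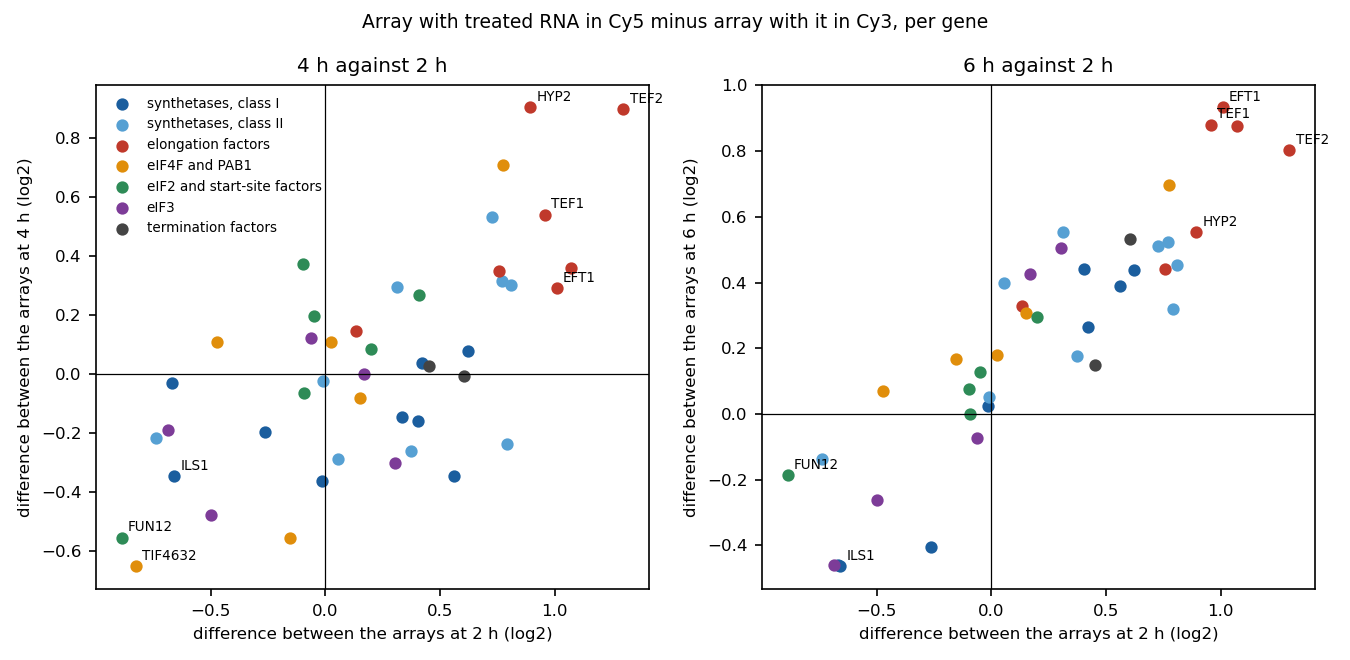
Difference in log2 ratio between the array with treated RNA in Cy5 and the array with it in Cy3, at 4 h (left) and 6 h (right) against 2 h, 1 point per gene, coloured by role. TEF1 and TEF2 are positive at every time (0.96, 0.54 and 0.88 for TEF1) and FUN12 is negative at every time, and the points for 6 h lie closer to a line (r = 0.90) than those for 4 h (r = 0.68).

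At 6 h the set spread widely, and the exchanged arrays gave nearly the same order. The median log2 ratio was 0.54, with array medians of 0.54 and 0.67, against −0.099 for all genes, and the arrays correlated with r = 0.90 over the 47 genes and 0.87 over all genes. Above 0 on both arrays were 35 of 47, against 39.4% of all genes, and 9 below, against 48.3%. The 2-fold rule was met upward by 15 of 47, against 9.81% of all genes, and downward by 2, against 8.08%. Where each array had to reach 2-fold, 10 met it upward and 1 downward, against 6.42% and 4.62%. The 15 were 9 synthetases, EFT1, EFT2, TIF4631, PRT1, NIP1 and SUP35, and the 2 were SUI1 and CDC33.

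The 6 h ratios went with gene length over all genes and among the factors, and less clearly among the synthetases, a difference that was not tested. The Spearman correlation with annotated length was 0.69 over the 47 genes (0.81 and 0.55 on the arrays), as a description, and 0.63 over 3921 genes. It was 0.82 over the 27 factors and 0.20 over the 20 synthetases (0.51 and −0.15 on the arrays). Under 1300 bp lay 13 of those factors but 2 of those synthetases. In the length ranges below, from short to long, the synthetase medians were 0.5, 0.88, 1.17 and 0.47. They were highest from 2000 bp to under 3000 bp, as were those of all genes. Of 15 genes under 1300 bp, 9 were below 0 on both arrays, against 66.7% of 2295 genes of that length, and the medians were −0.33 and −0.41. From 1300 bp to under 2000 bp, 13 genes had a 6 h median at 0.62, against 0.51 for 961 genes. The 14 genes from 2000 bp to under 3000 bp stood at 1.31 and held 11 of the 15 that met the 2-fold rule upward. Of 402 genes of that length 44% met it, with a median of 0.86. Above that, 5 genes stood at 0.47, against 0.44 for 263 genes. These limits were chosen after the values were seen. At 2 h the same Spearman value was 0.49 in the set and 0.15 over all genes, and at 4 h −0.25 and −0.29. Each 6 h value is therefore also given as its difference from matched genes, meaning the median ratio of the 20 genes of its chromosome that are closest to it in length. The part of length in the 6 h ratios was not tested.

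**Figure D3:**
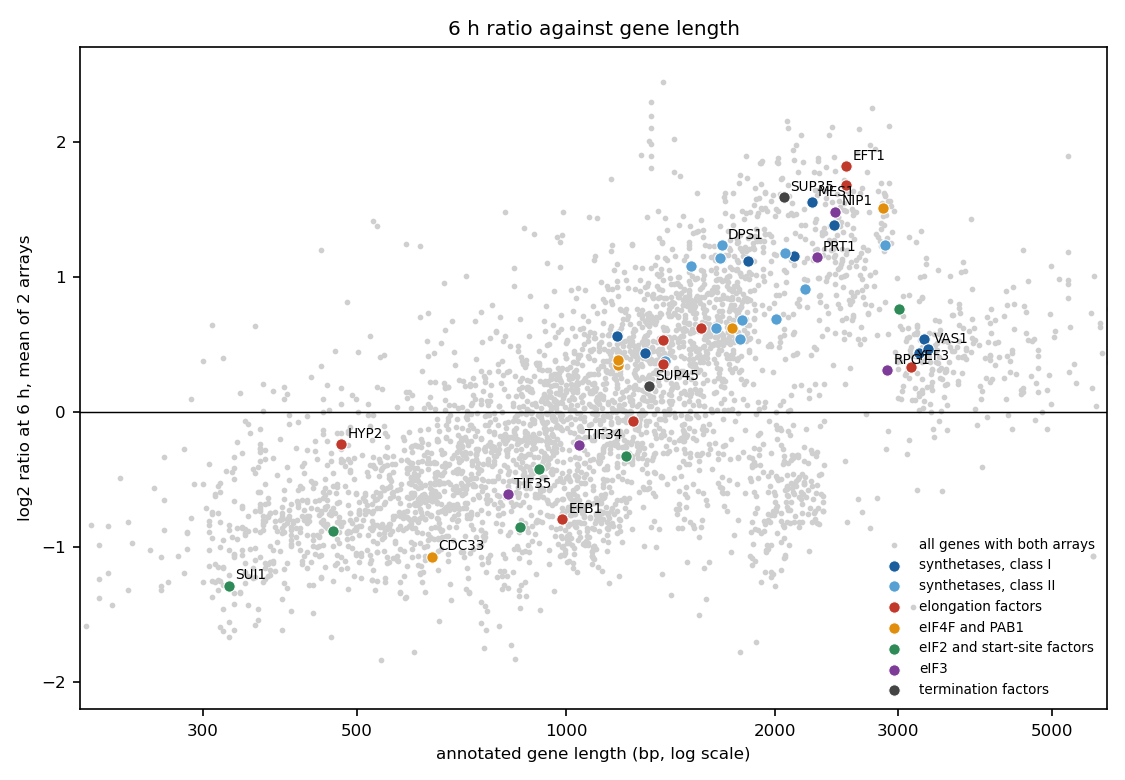
Mean log2 ratio of the 2 arrays at 6 h against annotated gene length (log scale) for genes with both arrays (grey) and for the set, coloured by role. Of 3921 genes, 36 lie outside the axes. The set follows the grey cloud from SUI1 (327 bp, −1.29) to EFT1 (2529 bp, 1.82), and the genes of 3000 bp and over, such as YEF3 and VAS1, lie lower again.

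Set against matched genes, the genes were split about evenly at 6 h. The median of the 47 genes was −0.051, with 16 above 0 on both arrays and 17 below, against 36.3% and 38% of all genes. Removing a smooth curve of ratio on length (lowess, span 0.3) over all chromosomes instead gave a median of 0.11. With that curve removed 24 were above 0 on both arrays and 16 below, against 1487 and 1545 of 3921 genes. Relative to matched genes NIP1 alone met the 2-fold rule upward and none downward, against 2.7% and 2.91% of all genes. With the length curve removed NIP1 did not meet it, as the highest eIF3 gene stood at 0.74. There 1 elongation factor gene met it, at 1.10, and 126 of 3921 genes did. Relative to matched genes the SD of the means over the set was 0.406, against 0.773 before. By that measure the 5 highest were NIP1, EFT2, SUP35, TEF1 and FRS2, and the 5 lowest EFB1, RPG1, SUI1, SUI3 and ILS1. The value of NIP1 rests on 1 array, since the median of its matched genes was 0.78 on replicate 1 and −0.33 on replicate 2, and NIP1 stood 0.45 and 2.06 above them. The 10 genes on chromosomes X to XIII, NIP1 among them, had a 6 h median of 0.37 and a median length of 1376 bp, and the other 37 had 0.56 and 1776 bp.

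**Figure D4:**
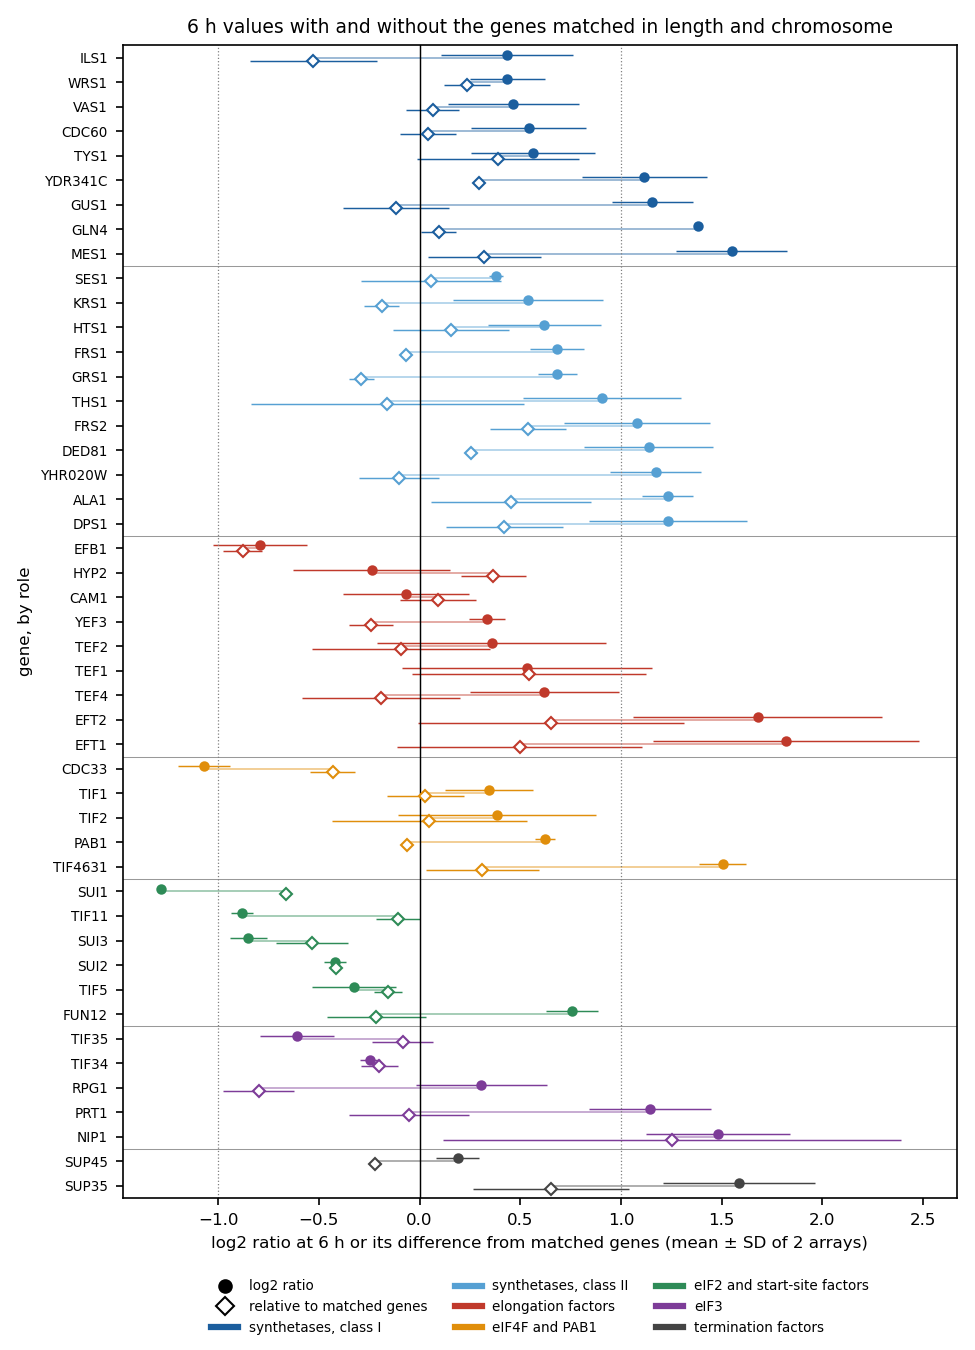
Mean ± SD over 2 arrays at 6 h of the log2 ratio (filled circles) and of its difference from matched genes (open diamonds) for the 47 genes, by role. All 20 synthetases have a circle above 0, while their diamonds lie between −0.53 and 0.54. Of the factors, EFB1, SUI1, SUI3 and RPG1 have diamonds furthest below 0.

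The synthetases were above untreated cells at 6 h without exception among the 20 measured on both arrays, against 39.4% of all genes. The 2-fold rule was met by 9, against 9.81%. Only 2 of the 20 are under 1300 bp. From 1300 bp to under 2000 bp 679 of 961 genes were above 0 on both arrays, and 17.6% met the rule. From 2000 bp to under 3000 bp these were 275 of 402 and 44%, and from 3000 bp 196 of 263 and 6.84%. The synthetase means ran from 0.38 for SES1, the seryl enzyme, to 1.55 for MES1, with a median of 0.80. Their median difference from matched genes was 0.080. By that measure 9 of 20 were above 0 on both arrays, against 36.3% of all genes, and 4 below, against 38%. With the length curve removed, the median was 0.32, with 13 above and 3 below, against 1487 and 1545 of 3921 genes. The size of what remains thus depends on the correction. The 2 structural classes of these enzymes, which differ in the fold of the catalytic domain, had 6 h medians of 0.56 (class I, 9 genes) and 0.91 (class II, 11 genes), a difference that was not tested, and 0.095 and 0.058 relative to matched genes. With the length curve removed these became 0.44 and 0.16.

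MES1 had 0.57 and 0.0040 (2 h), −0.48 and −0.14 (4 h), and 1.36 and 1.75 (6 h). It was 2.93-fold above untreated cells at 6 h (1.55 ± 0.28), and 0.32 ± 0.28 relative to matched genes. GLN4 (YOR168W), the glutaminyl enzyme, had 0.14 and 0.15 (2 h), −0.34 and 0.027 (4 h), and 1.37 and 1.39 (6 h), and stood at 0.095 ± 0.086 relative to matched genes. YDR341C, the arginyl enzyme, had 0.28 and −0.12 (2 h), −0.25 and −0.093 (4 h), and 0.90 and 1.34 (6 h), with 0.29 ± 0.016 relative to matched genes. All of these were far from 0 at 6 h on both arrays, and their matched genes were well above 0 too. GUS1 (YGL245W), the glutamyl enzyme, had no value (2 h), −0.53 and 0.33 (4 h), and 1.01 and 1.30 (6 h). Its difference from matched genes was −0.12 ± 0.26, with opposite signs on the arrays (−0.30 and 0.07). YHR020W, the prolyl enzyme, had 0.69 and −0.10 (2 h), −0.20 and 0.042 (4 h), and 1.01 and 1.33 (6 h). It stood at −0.10 ± 0.20 relative to matched genes, also with opposite signs (0.039 and −0.24).

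Other synthetases kept a positive value against matched genes on both arrays. DPS1 (YLL018C), the aspartyl enzyme, had 0.011 and −0.30 (2 h), 0.050 and −0.24 (4 h), and 0.96 and 1.51 (6 h), and 0.42 ± 0.29 relative to matched genes. DED81 (YHR019C), the asparaginyl enzyme, had 0.54 and −0.27 (2 h), 0.047 and −0.26 (4 h), and 0.91 and 1.36 (6 h), and 0.26 ± 0.031. ALA1 (YOR335C), the alanyl enzyme of both cytosol and mitochondria, had 0.34 and −0.036 (2 h), −0.25 and 0.012 (4 h), and 1.14 and 1.32 (6 h), and 0.45 ± 0.40. The 3 longest synthetase genes were lower at 6 h than these, with VAS1, the valyl enzyme, at 0.47 ± 0.33, CDC60, the leucyl enzyme, at 0.54 ± 0.29 and ILS1 (YBL076C), the isoleucyl enzyme, at 0.43 ± 0.33. ILS1 had −0.36 and 0.30 (2 h), −0.10 and 0.24 (4 h), and 0.67 and 0.20 (6 h), and was the lowest synthetase relative to matched genes at −0.53 ± 0.32. CRS1, measured on replicate 2 alone at 6 h, had 0.30 and −0.030 (2 h), −0.25 and −0.10 (4 h), and 1.41 on replicate 2 alone (6 h).

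The phenylalanyl enzyme is built of unlike subunits, and the 2 subunit genes were set side by side. FRS2 (YFL022C), the alpha subunit, had 0.28 and −0.45 (2 h), 0.21 and −0.33 (4 h), and 0.82 and 1.33 (6 h). FRS1 (YLR060W), the beta subunit, had no value (2 h), 0.091 and −0.15 (4 h), and 0.59 and 0.78 (6 h). The 6 h difference of FRS1 from FRS2 was −0.40 ± 0.23 over the 2 arrays, and relative to matched genes FRS2 was at 0.54 ± 0.19 and FRS1 at −0.067 ± 0.0057. The remaining synthetases, THS1, GRS1, HTS1, KRS1, TYS1, WRS1 and SES1, had 6 h means from 0.38 to 0.91, and none of them met the 2-fold rule.

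Among the 9 elongation factor genes, EFT1 and EFT2 had the highest 6 h ratios of the set and EFB1 was well below 0. EFT1 and EFT2 both encode eEF2, which moves the ribosome along the mRNA, and their products are known to be identical in sequence. EFT1 (YOR133W) had 0.49 and −0.52 (2 h), 0.14 and −0.16 (4 h), and 1.36 and 2.29 (6 h). EFT2 (YDR385W) had 0.55 and −0.52 (2 h), 0.11 and −0.25 (4 h), and 1.24 and 2.12 (6 h). That is 3.53-fold and 3.21-fold above untreated cells at 6 h, with a wide spread between arrays. Against matched genes EFT1 was at 0.50 ± 0.61 and EFT2 at 0.65 ± 0.66. EFT1 was 0.14 ± 0.041 above EFT2 at 6 h, but cDNA from either copy can bind the other's probe, so the copies cannot be told apart.

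TEF1 and TEF2 encode eEF1A, which brings charged tRNAs to the ribosome, and are likewise known as copies with the same product. TEF1 (YPR080W) had 0.43 and −0.53 (2 h), 0.26 and −0.29 (4 h), and 0.093 and 0.97 (6 h). TEF2 (YBR118W) had 0.59 and −0.71 (2 h), 0.31 and −0.59 (4 h), and −0.044 and 0.76 (6 h). Both had opposite signs on the exchanged arrays at 2 and 4 h, and at 6 h replicate 1 was near 0 for both. At 6 h, relative to matched genes, TEF1 was at 0.54 ± 0.58 and TEF2 at −0.093 ± 0.44, although the copies differed by 0.18 ± 0.055 before matching. TEF1 lies on chromosome XVI and TEF2 on chromosome II, so their matched genes are not the same, and the copies cannot be told apart by cDNA that binds both probes.

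Genes of eEF1B, the nucleotide exchange factor of eEF1A, had lower 6 h ratios than EFT1 and EFT2. EFB1 (YAL003W), its alpha subunit, had 0.0020 and −0.13 (2 h), 0.052 and −0.093 (4 h), and −0.96 and −0.63 (6 h). At −0.88 ± 0.10 it was the lowest of the set relative to matched genes. Its annotated span of 987 bp holds an intron. TEF4 and CAM1 encode its gamma subunit. TEF4 (YKL081W) had no value (2 h), 0.10 and 0.20 (4 h), and 0.36 and 0.88 (6 h). CAM1 (YPL048W) had 0.36 and −0.39 (2 h), 0.19 and −0.16 (4 h), and −0.29 and 0.15 (6 h). TEF4 was 0.69 ± 0.059 above CAM1 at 6 h, while the difference relative to matched genes was −0.28, and TEF4 too has an intron in its span. YEF3 (YLR249W), the fungal factor eEF3, had no value (2 h), 0.14 and 0.10 (4 h), and 0.40 and 0.27 (6 h). HYP2, which is eIF5A, had 0.29 and −0.60 (2 h), 0.58 and −0.33 (4 h), and −0.52 and 0.038 (6 h).

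In the cap-binding complex eIF4F, which recruits the ribosome to the mRNA, the subunits lay on opposite sides of 0 at 6 h. CDC33 (YOL139C), the cap-binding protein eIF4E, had 0.015 and −0.0080 (2 h), 0.14 and 0.026 (4 h), and −1.16 and −0.98 (6 h). That is 2.10-fold below untreated cells at 6 h and −0.43 ± 0.11 relative to matched genes. TIF4631 had 0.12 and 0.27 (2 h), −0.38 and 0.18 (4 h), and 1.42 and 1.59 (6 h), and was 2.84-fold above at 6 h, with 0.31 ± 0.28 relative to matched genes. Its paralog TIF4632 (YGL049C) had −0.10 and 0.73 (2 h), −0.63 and 0.026 (4 h), and 1.32 on replicate 1 alone (6 h). CDC33 is 642 bp long and TIF4631 is 2859 bp long. The helicase eIF4A is encoded by copies with the same product, and TIF1 (YKR059W) had 0.011 and −0.14 (2 h), 0.010 and 0.091 (4 h), and 0.19 and 0.50 (6 h). TIF2 (YJL138C) had 0.38 and −0.40 (2 h), 0.27 and −0.44 (4 h), and 0.037 and 0.73 (6 h). Against matched genes these were at 0.028 ± 0.19 and 0.049 ± 0.48. Binding of cDNA from TIF1 or TIF2 to the other's probe was not tested. PAB1 (YER165W), the poly(A)-binding protein that joins the mRNA tail to eIF4G, had −0.083 and 0.39 (2 h), 0.015 and −0.093 (4 h), and 0.59 and 0.66 (6 h), and −0.062 ± 0.020 relative to matched genes.

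Most genes of start-codon selection were below 0 at 6 h. Of the 7 genes of eIF2, eIF1, eIF1A, eIF5 and eIF5B, 6 had both arrays at 6 h, 5 were below 0 on both, and 6 were below matched genes on both arrays, where all genes had 48.3% and 38%. With the length curve removed 5 were below 0 on both arrays and FUN12 was above, where 1545 of 3921 genes were below and 1487 above. As log2 ratios the 5 below 0 were all genes under 1300 bp, and 66.7% of 2295 genes of that length were below 0 on both arrays. SUI1 (YNL244C), which is eIF1, had −0.10 and −0.0030 (2 h), 0.12 and 0.18 (4 h), and −1.29 and −1.29 (6 h), or 2.44-fold below untreated cells, and −0.66 ± 0.012 relative to matched genes. SUI3 (YPL237W), of eIF2, had −0.13 and −0.085 (2 h), 0.092 and −0.11 (4 h), and −0.91 and −0.79 (6 h), and −0.53 ± 0.18. SUI2, the alpha subunit of eIF2, had 0.30 on replicate 1 alone (2 h), −0.022 and −0.14 (4 h), and −0.46 and −0.38 (6 h), and −0.41 ± 0.0085 relative to matched genes. SUI2 and SUI3 thus were on the same side at 6 h, with SUI2 the higher by 0.43 ± 0.037, and GCD11, the gamma subunit, was not measured then.

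TIF11 had −0.25 and −0.15 (2 h), 0.27 and −0.11 (4 h), and −0.92 and −0.84 (6 h), and stood at −0.11 ± 0.11 relative to matched genes. TIF5 (YPR041W) had −0.018 and −0.22 (2 h), 0.11 and 0.022 (4 h), and −0.48 and −0.18 (6 h), and −0.16 ± 0.070. FUN12, of 3009 bp, was the 1 gene of this group above 0 at 6 h, with 0.85 and 0.67, and at −0.21 ± 0.25 relative to matched genes. Among these genes of start-site selection the median was −0.64 as a log2 ratio and −0.31 relative to matched genes, while ribosomal protein genes, also short, had −1.14 and −0.70.

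The 5 core subunits of eIF3, the large scaffold that binds the small ribosomal subunit, lay on both sides of 0 at 6 h. NIP1 (YMR309C), subunit c, had 0.31 and 0.0010 (2 h), −0.23 and 0.068 (4 h), and 1.23 and 1.73 (6 h). PRT1 (YOR361C), subunit b, had 0.067 and −0.10 (2 h), −0.14 and −0.14 (4 h), and 0.93 and 1.36 (6 h). RPG1 (YBR079C), subunit a, had −0.29 and 0.40 (2 h), −0.069 and 0.12 (4 h), and 0.54 and 0.077 (6 h). TIF34, subunit i, had −0.21 and −0.28 and TIF35, subunit g, had −0.48 and −0.74. The 2 short genes were below 0 and the 3 long genes above. Against matched genes PRT1 was at −0.051 ± 0.30, RPG1 at −0.80 ± 0.18, TIF34 at −0.20 ± 0.094, TIF35 at −0.084 ± 0.15 and NIP1 at 1.25 ± 1.14.

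The release factor genes had unlike 6 h ratios, a difference with no test. SUP35 (YDR172W), the GTPase eRF3, had 0.58 and −0.023 (2 h), −0.15 and −0.14 (4 h), and 1.32 and 1.85 (6 h), and was 3.00-fold above untreated cells at 6 h. SUP45 (YBR143C), which is eRF1 and reads stop codons, had 0.22 and −0.23 (2 h), −0.16 and −0.19 (4 h), and 0.11 and 0.26 (6 h). The difference of SUP45 from SUP35 was −1.40 ± 0.27 at 6 h and −0.033 ± 0.023 at 4 h. Relative to matched genes SUP35 was at 0.65 ± 0.39 and SUP45 at −0.22 ± 0.028, so the 6 h difference was smaller, at −0.87, and had the same sign. SUP35 is 2058 bp and SUP45 1314 bp long.

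Other lists of translation genes also held no gene past the limma tests. None of the 8 mitochondrial tRNA synthetases, 9 genes of eIF2B and the Gcn regulators, 9 further cytosolic translation genes and 108 ribosomal protein genes tested had an adjusted p under 0.05 for the mean or the slope. At an unadjusted p under 0.05 the mean gave 0 in each list, against 0.295% of all genes, and the slope gave 0, 4, 2 and 52, against 14.3%. Mitochondrial synthetases had a 6 h median of −0.062 over 8 genes. Of these 3 were above 0 on both arrays and 4 below, against 39.4% and 48.3% of all genes. Their median was −0.18 relative to matched genes or −0.51 with the length curve removed. The 6 h mean log2 ratios of the 8 genes ran from −0.51 to 0.66. Of the other 6 listed genes MSD1, NAM2 and MSR1 were measured on replicate 1 alone at 6 h, at 1.37 (MSD1), 1.32 (NAM2) and 0.93 (MSR1), all higher than that. The difference between these lists was not tested.

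The eIF2B genes, whose product recharges eIF2 with GTP, and the Gcn regulators had a 6 h median of 0.68. The regulators include the uncharged-tRNA sensor GCN2 and the transcription factor GCN4. Of the 9 genes 8 were above 0 on both arrays, against 39.4% of all genes. The list stood at 0.30 relative to matched genes, with 7 above and 2 below, against 36.3% and 38%. Past 2-fold were 4, against 9.81% of all genes. They were GCD6 at 1.46 ± 0.093, GCD2 at 1.32 ± 0.37, GCN20 at 1.25 ± 0.22 and GCN2, the kinase of eIF2, at 1.08 ± 0.24. In that order these genes are 2139, 1956, 2259 and 4980 bp long. Of genes from 1300 bp to under 2000 bp 17.6% met the rule. From 2000 bp to under 3000 bp 44% did, and from 3000 bp 6.84%. Relative to matched genes 0 of the 9 met it, against 2.7% of all genes, and with the length curve removed also 0. Of the further translation genes 12 had both arrays at 6 h, with a median of 0.020. Above 0 on both arrays were 6 and below 5, against 39.4% and 48.3% of all genes. Past 2-fold upward was 1, against 9.81%, namely DED1, a helicase of initiation, at 1.89 ± 0.81. Downward it was 1, against 8.08%, namely CAF20, which competes with eIF4G for eIF4E, at −1.31 ± 0.32. Relative to matched genes DED1 stood at 0.97 and CAF20 at −0.49, and 0 of the 12 met the rule. ANB1, the hypoxic copy of eIF5A, was at −0.28 ± 0.26, near HYP2 at −0.24 ± 0.39, and both are 474 bp long. Whether cDNA from HYP2 binds the probe of ANB1, or the reverse, was not tested. Ribosomal protein genes had 113 of 120 below 0 on both arrays at 6 h and 1 above, against 48.3% and 39.4% of all genes. Relative to matched genes 106 were below and 6 above, against 38% and 36.3%, where synthetases had 4 below and 9 above of 20. The lengths used for matching include introns, and the part of introns in this difference was not tested.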

How the data were processed

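Expression was measured on 2-colour arrays in 6 samples, with treated and untreated RNA of each time on 2 arrays. Per the labels, the authors labelled oligo(dT)-primed cDNA and left out spots smaller than 120 µm across and spots dimmer than 100 units in Cy3 and Cy5. The deposited values are log2 ratios as far as the values show, since the log base is not stated. Normalization, averaging of spots and turning of exchanged arrays are not given in the sources used here. The direction was read as treated over untreated because YPI1 was negative on every array. On replicate 2 of 2 h the labels give Cy3 for both channels, and it was taken as the dye swap. Signal intensities were not analysed here, so precision is set by how many arrays there are, and background correction, dim spots and slides could not be varied.

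Arrays of a time were averaged, and the mean and the slope through 0 were tested with limma 3.58.1 in R 4.3.3 over 3 RNA pairs in the 3391 genes with all values. No p measures biological replicates, and the pairs differ in hours. Single times have no test. Matched genes are the 20 nearest in annotated length, introns included, on the same chromosome, with the array's own values. Names and lengths come from RefSeq R64 and chromosomes from systematic names. Members, lists and corrections were chosen with earlier results of these data known. All 50 genes are covered. Values on every array are given for copies and paralogs, release factors, PAB1, FRS1, FRS2, genes past 2-fold, the 3 highest and lowest at 2 and 4 h, and the 5 highest and lowest against matched genes. The limma step was run on simulated time values with known shifts and independent normal noise. Its pass rule concerned the median estimate only, and the simulation held no differences between exchanged arrays.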

Additional observations from a re-analysis of the deposited data

Results flagged for a closer look

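Several genes given with values on every array had 1 sign on both arrays at a time and the opposite sign at another. For none of them was the difference between the times tested. Outside those genes VAS1, TYS1, WRS1, GRS1 and SES1 also were below 0 on both arrays at 4 h and above at 6 h. Of all genes from 1300 bp to under 2000 bp, 335 of 1146 were below 0 on both arrays at 4 h. At 6 h 679 of 961 were above, and the share of all genes that changed sign was not counted. From 4 to 6 h the mean log2 ratio went up by 1.86 for MES1, 1.73 for SUP35, 1.29 for YDR341C, 1.29 for PRT1 and 0.37 for SUP45. Between the same times the difference was −1.44 for SUI1, −1.15 for CDC33 and −0.39 for TIF5. From 2 to 4 h it was −0.60 for MES1, 0.20 for SUI1 and 0.18 for TIF5. At 2 h MES1 and SUI1 were near 0 on replicate 2, at 0.004 and −0.003. TIF5 was near 0 on replicate 1 at 2 h (−0.018) and on replicate 2 at 4 h (0.022). With 1 RNA pair per time the time and the pair cannot be told apart. Over all genes the 6 h ratios go with gene length. Relative to matched genes the 6 h means were 0.32 for MES1, 0.65 for SUP35, 0.29 for YDR341C, −0.051 for PRT1 and −0.22 for SUP45. They were −0.66 for SUI1, −0.43 for CDC33 and −0.16 for TIF5.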

How the results depend on the processing

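Of the alternatives to the test of the mean, all left 0 genes of the set past it. For the slope, 24 passed without the 4 h arrays and 0 under every other alternative, where leaving out replicate 1 or 2 gave 0 and 0. The cause was not tested. With 6 arrays as units and the replicate block, 0 genes of the set passed either test. The replicate numbers do not pair the arrays, since the deviations of replicate 1 correlated over genes with r = 0.57 between 2 and 4 h but −0.71 between 2 and 6 h and −0.54 between 4 and 6 h.

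At 6 h the 15 genes past 2-fold higher became 1 relative to matched genes, and the 2 lower became 0. The lower count was 6 at 1.5-fold, 1 with 2-fold required on each array (an alternative chosen after seeing the data), and 1 to 2 with a replicate left out. Relative to matched genes GUS1 went to −0.12, YHR020W to −0.10 and PRT1 to −0.051, each with opposite signs on its arrays. The 6 h median moved from 0.54 to −0.051 relative to matched genes, 0.11 with the length curve (lowess, span 0.3) removed and 0.14 with the sign turned on Cy3 arrays, and ran from 0.56 to 0.70 with a replicate left out. The 4 h median of −0.079 became −0.006 relative to matched genes, 0.0073 with the sign turned, and ran from −0.093 to −0.031 with a replicate left out. Turning the sign makes YPI1, negative on every array as read here, positive on the Cy3 arrays. Centring each array on its median moved none of these counts by more than 1.5 times. Depth per spot is unknown, and 1 RNA pair per time limits every single-time value.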
